A study of Homo sapiens with 12 samples.

Results

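The genes described here are MYC, its partner MAX and the nucleolar genes linked to them, which make, modify and assemble ribosomes or supply polyamines and pyrimidines. They were the rows of the deposited count table whose Ensembl identifier maps to a listed symbol, which gave 46 genes of 58884, each matched to 1 row. By role they comprised MYC and MAX, 3 box C/D and 4 box H/ACA ribonucleoproteins, 4 nucleolar phosphoproteins, 3 RNA polymerase I genes, 11 small subunit and 14 large subunit factors, 2 other nucleolar genes and 3 enzymes of polyamine or pyrimidine synthesis. RNA-seq was done on U2932 and TMD8, established cell lines of diffuse large B-cell lymphoma (DLBCL), both labelled WT. Each line was treated with rituximab (R), ofatumumab (OF) or a human IgG1 isotype control at 20 µg/mL for 4 h. R and OF are monoclonal antibodies against CD20, a B-cell surface protein, and they bind different epitopes of it. Each of the 6 conditions had 2 libraries, from 2 cultures of each line kept apart for a week, and libraries with the same replicate number were taken to share a culture. The replicates are thus cultures of 1 cell line, and the p-values measure the spread between such cultures.

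MYC is a transcription factor that binds DNA with MAX at the E-box, and it is known for driving ribosome production and growth in B-cell lymphomas. Ribosome synthesis starts in the nucleolus, where RNA polymerase I copies the ribosomal RNA precursor. Small nucleolar ribonucleoproteins then modify it, and separate sets of factors cut, fold and export the small and the large subunit.

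The E-box (CACGTG, which reads the same on both strands) was searched in RefSeq windows from 250 bases before to 50 bases after each gene's start, on build GRCh38.p14. Of the 46 genes 37 had a window, and 18 of these (48.6%) held the motif, against 8.77% of 27305 genes with a window and 12.6% of the 10297 of those tested in U2932. The list was chosen for its link to MYC, which binds this motif, so these shares are a description and no test. Each of the sites below is shown because its gene passed the test in U2932 in the comparisons that follow, 5′ to 3′ on the gene's strand, with the E-box in capitals. The window also had to hold an annotated transcript start read in the same direction. BYSL, lower with both antibodies, holds the motif but did not meet this rule and is not shown. The first sites belong to genes that were lower with both antibodies:
DDX21, chr10:68956604-68956633 (+): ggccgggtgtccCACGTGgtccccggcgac
UTP20, chr12:101280083-101280112 (+): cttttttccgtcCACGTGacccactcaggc
LYAR, chr4:4290068-4290097 (−): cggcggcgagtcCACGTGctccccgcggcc
GNL2, chr1:37595917-37595946 (−): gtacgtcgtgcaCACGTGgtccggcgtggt
WDR43, chr2:28894658-28894687 (+): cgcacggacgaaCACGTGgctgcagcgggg
GAR1, chr4:109815781-109815810 (+): gggccagaggggCACGTGgcgccggtgagt
PES1, chr22:30591880-30591909 (−): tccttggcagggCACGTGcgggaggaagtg
The next belong to genes that were higher with both antibodies, with 2 sites for NOP10:
NOP10, chr15:34343289-34343318 (−): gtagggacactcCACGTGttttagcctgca
NOP10, chr15:34343130-34343159 (−): gaaattgacgaaCACGTGacgcggtcgggc
FBL, chr19:39846356-39846385 (−): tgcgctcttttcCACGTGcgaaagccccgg
UTP20 is shown at greater length, since it was among the genes that fell most; its motif lies 10 to 5 bases before the start:
UTP20 upstream window, chr12:101279855-101280104 (+): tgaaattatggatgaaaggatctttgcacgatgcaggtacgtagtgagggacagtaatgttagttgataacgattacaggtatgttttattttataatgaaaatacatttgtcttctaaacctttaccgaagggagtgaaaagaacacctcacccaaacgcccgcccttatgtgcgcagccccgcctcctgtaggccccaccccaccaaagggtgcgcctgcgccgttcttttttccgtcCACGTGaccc
With R in U2932 the E-box was in 8 of 16 genes that were lower (50%) and in 10 of 21 that were not (47.6%), and with OF in 9 of 19 (47.4%) and 9 of 18 (50%). A match is a description of the letters in these windows, and binding was not measured.

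The total count per library was 15440226 to 27110612, and the 46 genes held 1.07 to 1.31% of the counts in U2932 and 1.42 to 1.69% in TMD8. All 46 passed the filter on low counts in both lines. In single libraries NOP2 had 8 to 63 counts and PPAN 122 to 536, and every other gene had at least 183. B-cell markers were present in every library (MS4A1, which encodes CD20, at 856 to 2348 CPM, counts scaled to a common library total). The 5 T and NK cell markers summed to 0.195 CPM at most, and the 5 myeloid markers to 1.49 CPM at most. OF replicate 2 and isotype replicate 2 of TMD8 stood apart from the other libraries of that line. In these 2 libraries 7.78 and 7.05% of the counts fell on cytosolic ribosomal protein genes, where the remaining 4 had 10.9 to 11.8%, and 3.73 and 3.99% fell on mitochondrial genes, where the remaining 4 had 5.70 to 6.23%.

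Per kilobase of exon, NPM1, the nucleolar chaperone nucleophosmin, had the highest level in both lines (509 CPM per kb in U2932 and 676 in TMD8, as means over the 6 libraries). ODC1, the rate-limiting enzyme of polyamine synthesis, was the next in U2932 at 387 and NCL, which encodes nucleolin, in TMD8 at 459. The lowest were PPAN, at 3.38 and 4.64, and NOP2, at 0.197 and 0.353. Of their exonic length 56.0% (PPAN, with PPAN-P2RY11) and 54.4% (NOP2, with AC006064.6) is shared with another gene on the same strand, so their counts are uncertain, and NPM1 has 45 annotated pseudogenes. Whether counting used the strand is not given in the sources used here, and 23.2% of HEATR1, 20.7% of TSR1, 20.2% of NOB1 and 27.4% of NHP2 overlap a gene on the opposite strand.

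MYC was higher with both antibodies in U2932 and with OF in TMD8, while MAX was at 63.7 to 82.2 CPM in all 12 libraries. In U2932, MYC had 12.3 and 9.96 CPM with R and 13.0 and 14.0 with OF, against 8.50 and 8.02 with isotype. In TMD8, it had 266 and 236 CPM with R and 311 and 319.9 with OF, against 130.1 and 147 with isotype. In each line, the 4 anti-CD20 libraries were all above both isotype libraries. With R, both libraries were above both isotype libraries in 28.9% of all genes tested in U2932 and 23.5% in TMD8. With OF, the shares were 32% and 18.1%. The log2 fold change of MYC in U2932 was 0.43 ± 0.15 (adjusted p = 0.0298) with R and 0.71 ± 0.15 (adjusted p = 0.000546) with OF, by edgeR's quasi-likelihood test with Benjamini-Hochberg adjustment (threshold 0.10, mean ± SE), which is used throughout. In TMD8 it was 1.19 ± 0.16 (adjusted p = 0.0851) with OF, and 0.87 ± 0.16 (adjusted p = 0.104) with R, just outside the threshold. With the replicate number as a block, both passed in TMD8 (0.87, adjusted p = 0.0104 with R, and 1.19, 0.005 with OF). Over all alternatives the adjusted p in TMD8 was 9.14e-12 to 0.894 with R and 3.76e-16 to 0.376 with OF. The OF call there was lost without either R library, either OF library or isotype replicate 1, at log2 fold changes of 1.13 to 1.21, and with library size only (1.12). The R call in U2932 was lost without R replicate 1 (0.26) and without isotype replicate 2 (0.39), and its adjusted p was 0.0176 to 0.331 over all alternatives. MAX had log2 fold changes of −0.02 and 0.03 in U2932 and −0.08 and 0.10 in TMD8 with R and OF, none past the threshold.

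**Figure D1:**
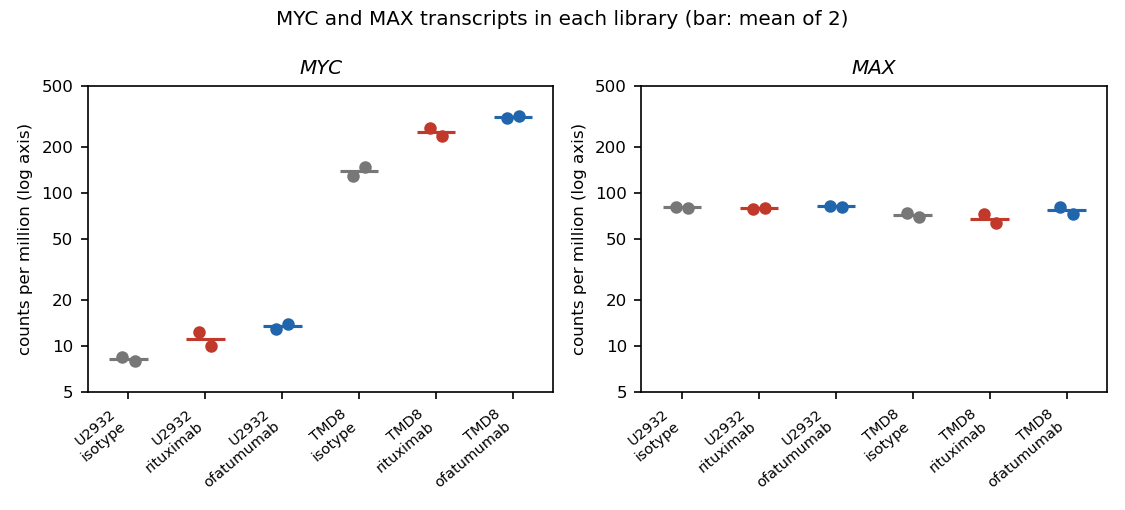
CPM of MYC (left) and MAX (right) in each of the 12 libraries, on a log axis, by cell line and antibody; points are libraries and bars the mean of 2. In both lines the MYC libraries treated with R or OF sit above the isotype libraries, and MAX stays between 63.7 and 82.2 CPM.

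In U2932, more of the ribosome synthesis genes fell than rose with either antibody. With R, 18 of the 46 were lower and 5 higher (MYC, FBL, NHP2, NOP10 and UBTF), where 17.4% of the 14635 genes tested were lower and 16.8% higher. Their median log2 fold change was −0.18, against −0.02 over all genes tested. With OF, 21 were lower and 5 higher (MYC, UBTF, FBL, TCOF1 and NOP10), against 17.8% and 18.7% of all genes, with medians of −0.19 and 0.01. As these are bulk samples, fewer cells of a type and less RNA per cell cannot be told apart. The R and OF comparisons share their isotype libraries, so the 2 sets of values are not independent. Within replicate 1 alone, 35 genes were negative and 11 positive with R, and 35 and 11 with OF. Of all genes tested, 49.3% (R) and 50.3% (OF) were positive there. Within replicate 2, 34 were negative and 12 positive with R, and 32 and 14 with OF. Of all genes tested, 48.2% and 49.4% were positive in that replicate. These are the libraries already tested, so the counts are no separate evidence. The share of counts on ribosomal protein genes also moved with the antibodies, from 5.24 and 4.90% with isotype to 6.98 and 7.27% with R and 6.69 and 6.83% with OF, and MS4A1 was at 856 and 959 CPM with isotype and at 1426 to 1681 with the antibodies. Between the lowest and highest deciles of GC content, the median response of all genes went from −0.09 to 0.07 with R. With OF it went from −0.14 to 0.18. The part of any of these shifts in these results was not tested. Whichever single library was left out, 12 of the 18 lower genes and 1 of the 5 higher (NHP2) still passed with R, and 9 of 21 and 2 of 5 (MYC and UBTF) with OF. HEATR1 with R was at −0.24 without isotype replicate 2 and still passed. When all 12 libraries were fitted together, which takes in the spread of the TMD8 libraries, 1 gene was lower (UTP20) and 0 higher with R, and 3 lower (UTP20, DDX21 and HEATR1) and 1 higher (MYC) with OF, where 7.46% (R) and 8.69% (OF) of all genes were called. With library size as the only scaling, the median of all genes moved to −0.12 with R and −0.07 with OF, and 28 members were lower and 2 higher with R (37% of all genes called), and 26 and 2 with OF (37.3%).

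**Figure D2:**
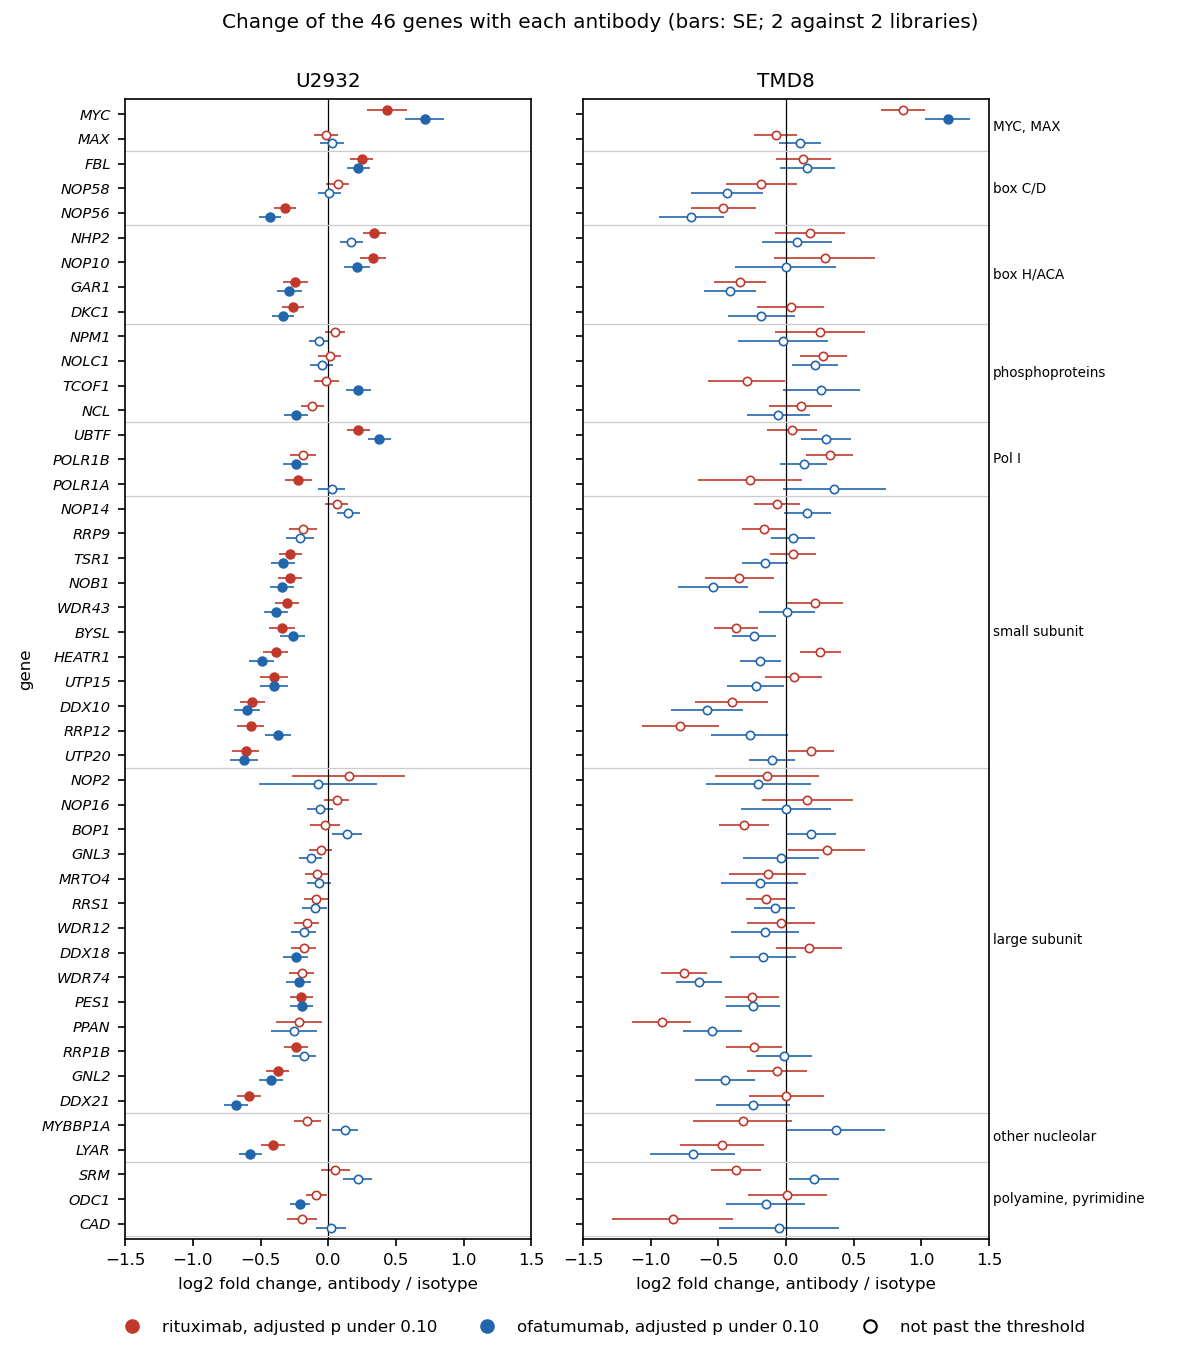
Log2 fold change of each of the 46 genes with R (red) or OF (blue) against isotype in U2932 (left) and TMD8 (right), grouped by role; bars are the SE and filled points passed an adjusted p of 0.10. In U2932 the filled points lie mostly left of 0 among the small and large subunit factors, and in TMD8 only MYC with OF is filled.

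The small subunit factors formed the group with the most genes that fell. Of 11, 9 were lower with R and 9 with OF in U2932, and none was higher (medians −0.34 and −0.37). UTP20, a large scaffold protein of the small subunit processome, had 105 and 99.2 CPM with R and 97.2 and 104 with OF, against 138 and 174 with isotype. All 4 anti-CD20 libraries were below both isotype libraries, and the log2 fold change was −0.61 ± 0.10 (adjusted p = 5.71e-05) with R and −0.62 ± 0.10 (adjusted p = 4.49e-05) with OF. Of all genes tested in U2932, 30.8% had both R libraries below both isotype libraries, and 32.2% had both OF libraries below. These shares also stand beside the other genes named below for U2932 whose libraries lay below isotype without overlap. The share with all 4 anti-CD20 libraries below is not given. DDX10, a DEAD-box RNA helicase, had 102 and 117 CPM with R and 106 and 106 with OF, against 150.4 and 173 with isotype. Its groups did not overlap either, and it fell by 0.56 on the log2 scale with R (SE 0.09, adjusted p = 6.96e-05) and by 0.60 with OF (SE 0.10, adjusted p = 3.07e-05). RRP12, which takes part in subunit export, had 47.6 and 45.4 CPM with R and 54.6 and 52.0 with OF, against 73.0 and 65.3 with isotype. It was lowest with R, at −0.57 ± 0.10 (adjusted p = 9.04e-05), and at −0.37 ± 0.10 (adjusted p = 0.00549) with OF. HEATR1, a processome subunit also known as UTP10, had 261 and 258 CPM with R and 229.9 and 252 with OF, against 307 and 373 with isotype, a change of −0.39 ± 0.09 (adjusted p = 0.00239) and −0.49 ± 0.09 (adjusted p = 0.000235). UTP15 and WDR43, which belong to the early subcomplex that links processing to transcription, fell by 0.40 and 0.31 with R and by 0.40 and 0.38 with OF. BYSL, TSR1 and NOB1, which act on late small subunit precursors, fell by 0.34, 0.28 and 0.28 with R and by 0.26, 0.33 and 0.34 with OF. RRP9 and NOP14 did not pass, at −0.19 and 0.06 with R and −0.21 and 0.15 with OF. With the replicate block, RRP9 passed with OF (adjusted p = 0.0991; 0.000313 to 0.476 over all alternatives), as did RRP1B, a large subunit factor (0.099; 0.0138 to 0.582).

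Of the 14 large subunit factors, 4 were lower with R and 5 with OF, and none was higher (medians −0.17 and −0.18). DDX21, a helicase that also binds RNA polymerase I and II transcripts, had 319 and 339 CPM with R and 293 and 321 with OF, against 458 and 529.6 with isotype. All anti-CD20 libraries were below both isotype libraries, at −0.59 ± 0.09 (adjusted p = 1.5e-05) with R and −0.68 ± 0.09 (adjusted p = 2.09e-06) with OF. GNL2, a nucleolar GTPase needed for export of the subunit, had 171 and 178 CPM with R and 164 and 173 with OF, against 215 and 238 with isotype, a change of −0.38 ± 0.09 (adjusted p = 0.00197) and −0.42 ± 0.09 (adjusted p = 0.000656). PES1, a member of the PeBoW complex, fell by 0.20 with each antibody (adjusted p = 0.0808 and 0.0811). Its partners BOP1 and WDR12 did not pass, at −0.03 and −0.16 with R and 0.14 and −0.18 with OF. RRP1B passed with R (−0.24, adjusted p = 0.0414), and with OF it was at −0.18 (0.124). DDX18 and WDR74 passed with OF only (−0.24 and −0.22), although the log2 difference between R and OF was 0.06 ± 0.09 for DDX18 and 0.02 ± 0.09 for WDR74, neither of them called. With the replicate block, DDX18 and WDR74 also passed with R (adjusted p = 0.0973 and 0.0932; 0.00718 to 0.709 and 0.00722 to 0.457 over all alternatives). With OF, DDX18 was at −0.11 without isotype replicate 2 and at −0.37 without isotype replicate 1, and WDR74 at −0.14 without isotype replicate 1. After removal of the trend on GC content, DDX18 no longer passed with OF (−0.10, adjusted p = 0.247; 0.00151 to 0.514 over all alternatives). GNL3, NOP16, MRTO4, RRS1, PPAN and NOP2 were not called with either antibody. LYAR, a nucleolar zinc-finger protein that is abundant in growing cells, had 191 and 193 CPM with R and 172 and 168 with OF, against 241 and 268 with isotype. It was lower in every anti-CD20 library, at −0.41 ± 0.09 (adjusted p = 0.000806) and −0.58 ± 0.09 (adjusted p = 1.7e-05), and MYBBP1A, which binds MYB and RNA polymerase I, was at −0.16 and 0.12, neither called.

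Each ribonucleoprotein complex held genes called higher and genes called lower in U2932, and the higher calls were the less stable. The box C/D particle methylates ribosomal RNA, with fibrillarin (FBL) as the methyltransferase and NOP56 and NOP58 as its core. FBL had 269 and 265 CPM with R and 259 and 263 with OF, against 235 and 215 with isotype, and was higher with both antibodies, at 0.25 ± 0.08 (adjusted p = 0.0316) and 0.22 ± 0.09 (adjusted p = 0.0516). NOP56 had 411 and 426 CPM with R and 379.9 and 393 with OF, against 512 and 532 with isotype, and was lower, at −0.32 ± 0.08 (adjusted p = 0.00358) and −0.43 ± 0.08 (adjusted p = 0.000216). Neither gene's anti-CD20 libraries overlapped its isotype libraries, and NOP58 was at 0.07 and 0.01, not called. For FBL, which lay above isotype, the shares over all genes are those given for MYC, 28.9% with R and 32% with OF. The box H/ACA particle converts uridine to pseudouridine, with dyskerin (DKC1) as the enzyme. DKC1 fell by 0.26 with R and 0.33 with OF, and GAR1 by 0.25 and 0.29 (adjusted p of 0.00315 to 0.0475). NOP10 had 98.0 and 111 CPM with R and 93.5 and 98.4 with OF, against 86.6 and 79.4 with isotype, and rose with both, at 0.33 ± 0.09 (adjusted p = 0.00972) and 0.21 ± 0.10 (adjusted p = 0.0937). NHP2 had 188 and 188 CPM with R and 167 and 166 with OF, against 148 and 149 with isotype, and rose with R (0.34 ± 0.09, adjusted p = 0.00365) but did not pass with OF (0.17 ± 0.09, adjusted p = 0.138). The FBL call with OF was lost after the GC content correction (0.08, adjusted p = 0.338; 0.00987 to 0.453 over all alternatives). It was also lost with library size only, which ended the R call too. As given above, the calls of FBL and NOP10 were each lost without some single library, with either antibody.

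Among the listed RNA polymerase I genes, UBTF, the factor that keeps ribosomal DNA open, rose with both antibodies while POLR1A and POLR1B did not. Other subunits and factors of this polymerase are in the related list described below, where more were called lower than higher with each antibody. UBTF had 217 and 213 CPM with R and 231 and 246 with OF, against 191 and 177 with isotype, a change of 0.22 ± 0.09 (adjusted p = 0.0575) and 0.38 ± 0.09 (adjusted p = 0.00162). POLR1A, the largest subunit, had 105 and 87.5 CPM with R against 117 and 107 with isotype, and was lower with R (−0.22 ± 0.10, adjusted p = 0.0977), while with OF it was at 0.02. The R value of POLR1A was −0.09 without R replicate 2 and −0.36 without R replicate 1, and the call was lost in the first case. POLR1B, the other large subunit, was lower with OF (−0.24 ± 0.10, adjusted p = 0.0563) and at −0.19 ± 0.10 (adjusted p = 0.147) with R. Of the nucleolar phosphoproteins, NCL had 1095 and 1083 CPM with R and 983 and 1014 with OF, against 1046 and 1318 with isotype. It was lower with OF (−0.24 ± 0.09, adjusted p = 0.0399), and its R libraries lay between the isotype libraries (−0.12 ± 0.09, adjusted p = 0.34). With OF, NCL was at −0.06 without isotype replicate 2 and at −0.41 without isotype replicate 1. TCOF1, which encodes treacle, an organizer of ribosomal DNA transcription, was higher with OF at 0.22 ± 0.09 (adjusted p = 0.0757), and this call was lost after the GC content correction (0.07, adjusted p = 0.463; 0.0184 to 0.658 over all alternatives) and without isotype replicate 2 (0.15). NPM1 and NOLC1 were not called either, at 0.05 and 0.01 with R and −0.07 and −0.05 with OF. ODC1 was lower with OF (−0.21 ± 0.08, adjusted p = 0.0376) and at −0.09 with R. SRM, which makes spermidine, and CAD, which starts pyrimidine synthesis, were not called, at 0.05 and −0.19 with R and 0.22 and 0.02 with OF. With the replicate block, SRM passed with OF (0.22, adjusted p = 0.0542; 0.0012 to 0.863 over all alternatives).

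In TMD8, MYC with OF was the 1 member past the threshold, and the spread between replicates was wider. With R, 0 of 46 were called by edgeR, against 0.647% of 14227 genes, and 4 had an unadjusted p under 0.05. The share of all genes under that unadjusted limit is not given, so the count of 4 is a description only. DESeq2 called 3 with R (4.9% of all genes), which were MYC (higher) and WDR74 and PPAN (lower). With OF, 1 was higher and 0 lower, where 0.471% of all genes were higher and 0.815% were called in either direction. The median SE of a member was 0.23 in TMD8 and 0.09 in U2932. In CAD, the 2 libraries that stand apart had 353 (OF) and 394 CPM (isotype) against 146 to 182 in the other 4. In POLR1A they had 263 and 225 CPM against 104 to 156, and in NOP10 52.5 and 53.8 against 89.8 to 98.7. Both libraries were thus high in some members and low in others, whichever antibody they had received.

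**Figure D3:**
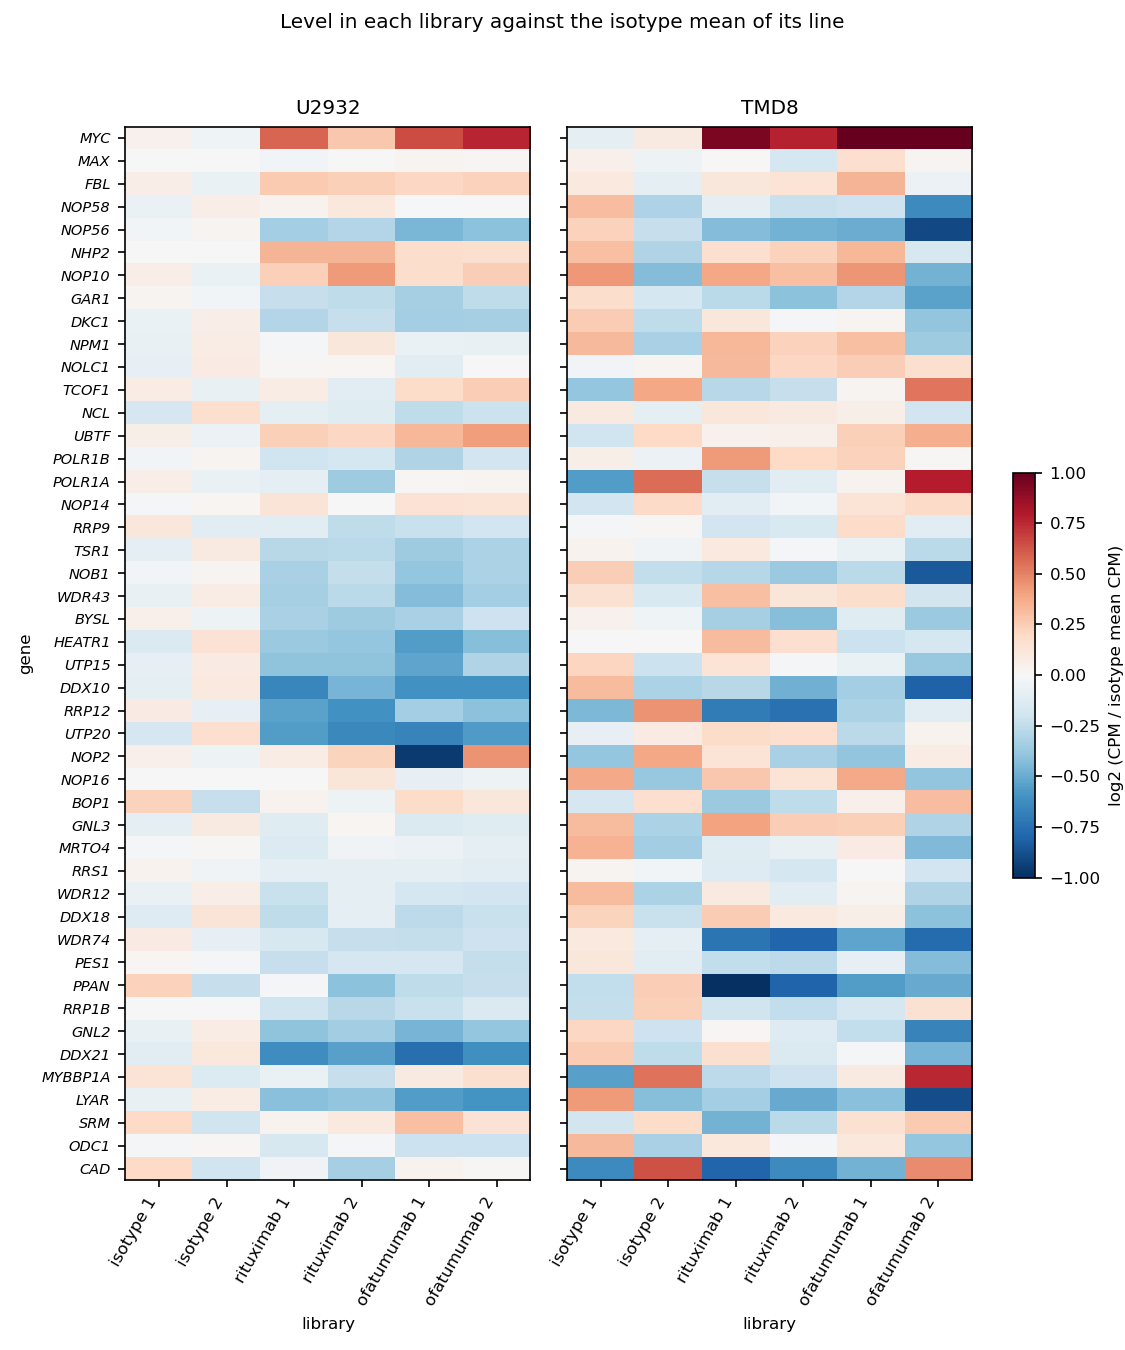
Level of each gene (rows, grouped by role) in each library (columns), as the log2 ratio of its CPM to the mean of the isotype libraries of the same line; red is higher and blue lower, and colours saturate at ±1. In TMD8 the second OF and isotype libraries are red in CAD and POLR1A and blue in NOP10 relative to their first replicates.

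With the replicate block, which compares libraries of the same culture, more genes passed in TMD8 over the whole table. With R, 5 of the 46 were lower, a share close to the 8.73% of all genes that were lower in that fit. Their values follow as a description. WDR74, which acts in large subunit maturation, had 79.9 and 76.4 CPM with R and 91.7 and 77.6 with OF, against 141 and 124 with isotype, and all 4 anti-CD20 libraries were below both isotype libraries. Of all genes tested in TMD8, 24.4% had both R libraries below both isotype libraries, and 20.5% both OF libraries. The change of WDR74 was −0.75 (adjusted p = 0.0111) with R and −0.64 (0.0212) with OF. PPAN had 7.93 and 9.20 CPM with R and 10.9 and 11.3 with OF, against 13.5 and 19.0 with isotype, at −0.91 (0.0175) and −0.53 (0.0953). RRP12, CAD and BYSL were the other genes lower with R, at −0.73, −0.70 and −0.37. With OF, 8 were lower with the block, against 6.87% of all genes. They were NOP56 (−0.70), LYAR (−0.66), WDR74, DDX10 (−0.57), NOB1 (−0.55), PPAN, GNL2 (−0.45) and GAR1 (−0.41). Over all alternatives the adjusted p of these genes ran from 8.18e-11 to 0.955 with R and from 3.84e-07 to 0.826 with OF. CAD rested on isotype replicate 2, and without that library it was at −0.08 with R, while RRP12 was at −0.27. Without isotype replicate 1 and with no block, LYAR was at −0.17 and DDX10 at −0.21 with OF.

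Without OF replicate 2 and isotype replicate 2, an alternative chosen after the values were seen, 16 members were lower and 4 higher with R in TMD8, where 14.4% of all genes were lower and 15.9% higher. With OF, 8 were lower and 6 higher, where 10.9% and 12.5% of all genes were. Both comparisons then rest on 1 isotype library, and the lone libraries are assumed to vary like the R libraries. LYAR was at −0.86 with R and −0.85 with OF, WDR74 at −0.87 and −0.63, DDX10 at −0.70 and −0.66, and NOP56 at −0.69 and −0.74. MYC was at 0.94 with R and 1.25 with OF. POLR1A and MYBBP1A, which were below 0 with R in the fit of all libraries, were above 0 without these 2 (0.38 and 0.30). DDX21 and ODC1 turned from 0.0026 and 0.01 to −0.25 and −0.29.

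No member passed the test between R and OF in either line. In U2932, 0 of 46 were called by edgeR, against 0.00683% of all genes, and 3 had an unadjusted p under 0.05 (TCOF1, POLR1A and MYBBP1A, each lower with R). In TMD8, 0 were called against 0% of all genes, and HEATR1, BOP1 and SRM had an unadjusted p under 0.05. The shares of all genes under that unadjusted limit are not given, so these genes are named as a description only. DESeq2 also called 0 in both lines. Between the lowest and highest deciles of GC content, the median difference of all genes, R minus OF, went from 0.06 to −0.13 in U2932. In TMD8, with all 6 libraries, it went from 0.23 to −0.41. The part of this trend in the values of this paragraph was not tested. For MYC the log2 difference, R minus OF, was −0.28 ± 0.14 in U2932 and −0.33 ± 0.16 in TMD8 (adjusted p = 0.91 and 0.733). Without the 2 TMD8 libraries that stand apart, 5 members were called there, with UTP20 and HEATR1 higher with R (0.45 and 0.46) and SRM, RRP12 and BOP1 lower (−0.52, −0.41 and −0.36), against 4% of all genes.

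The response to an antibody was then compared between the lines, as the log2 fold change in U2932 minus that in TMD8. In the fit without the block, 0 members were called for R, against 0.321% of 16187 genes, and 0 for OF, against 0.105%. Unadjusted p-values were under 0.05 for 6 and 3 members. The shares of all genes under that limit are not given, so these counts are a description only. With the replicate block, 6 were called for R, where 6.04% of all genes were called. UTP20 within replicates 1 and 2 changed by −0.39 and −0.81 with R in U2932 and by 0.26 and 0.09 in TMD8, and the difference was −0.78 ± 0.17. HEATR1 changed by −0.23 and −0.53 in U2932 and 0.32 and 0.16 in TMD8, and the difference was −0.62 ± 0.15. For both, each U2932 culture lay below 0 and each TMD8 culture above. Both genes were picked by a test of these same libraries, so the pattern is a description only. The share of all genes with it is not given. DDX21, WDR43 and POLR1B also had negative differences, and WDR74 a positive one. DESeq2 called UTP20 and HEATR1, where 4.47% of all genes were called (−0.80 and −0.64, adjusted p = 0.0217 and 0.0249). Over all alternatives the adjusted p was 0.000328 to 0.653 for UTP20 and 0.00525 to 0.7 for HEATR1. With the block and the GC content correction together, UTP20 alone of the 46 passed, where 3.11% of all genes did (−0.65, adjusted p = 0.0763). Over all genes, the median R response in the lowest and highest GC deciles was −0.09 and 0.07 in U2932 and 0.14 and −0.27 in TMD8. Without the 2 TMD8 libraries that stand apart, 7 differences were positive and 6 negative, where 16% of all genes were called. MYC did not pass for either antibody, at −0.42 ± 0.20 for R and −0.48 ± 0.20 for OF.

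**Figure D4:**
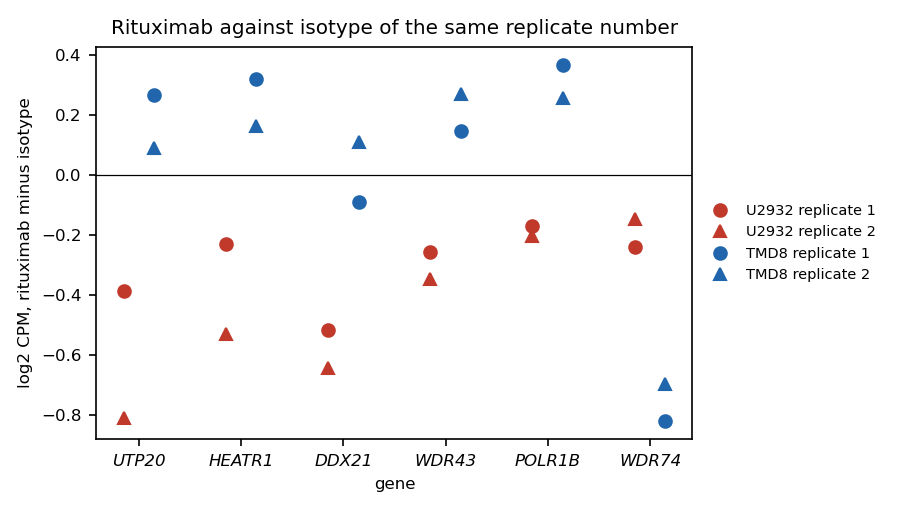
Log2 CPM with R minus log2 CPM with isotype of the same replicate number, for the 6 genes whose R response differed between the lines with the replicate block; red is U2932 and blue TMD8, circles are replicate 1 and triangles replicate 2. For UTP20, HEATR1, WDR43 and POLR1B every U2932 point lies below 0 and every TMD8 point above, and WDR74 is lowest in TMD8.

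Under isotype, U2932 had lower levels than TMD8 of most members, with MYC the farthest apart. In U2932, 24 of 46 were lower and 5 higher, where 33.7% of 16187 genes were lower and 33.2% higher, with a median log2 difference of −0.47 against −0.02 over all genes. MYC had 8.50 and 8.02 CPM in U2932 and 130.1 and 147 in TMD8, a log2 difference of −4.07 ± 0.15 (adjusted p = 4.22e-09). RRP12 had 73.0 and 65.3 CPM in U2932 and 157 and 293 in TMD8 (−1.70 ± 0.23, adjusted p = 6.16e-05). NCL, NOLC1 and TCOF1 of the nucleolar phosphoproteins were also lower in U2932, at −1.41, −1.13 and −1.01, as were POLR1B and DDX21, at −1.04 and −1.04. The box H/ACA genes had differences of 0.01 to 0.13 and SEs of 0.14 to 0.29, none of them called. LYAR went the other way, with 241 and 268 CPM in U2932 against 122 and 67.0 (1.43 ± 0.24, adjusted p = 0.000305). DDX10, HEATR1, GNL2 and NOP14 were also higher in U2932, by 1.04, 0.97, 0.85 and 0.75. The count of lower members was 15 without U2932 isotype replicate 1, and that of higher members was 9 without TMD8 isotype replicate 1. With 1 isotype library left in TMD8, DKC1, NHP2 and NOP10 turned to −0.22, −0.22 and −0.25. With the replicate block, BYSL, NOB1, NOP58, NPM1 and WDR43 also passed, all lower in U2932, where 33.8% of all genes were lower.

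A wider list of 125 related genes of RNA polymerase I, subunit assembly, the MYC network and polyamine or nucleotide synthesis was counted in the same way. In U2932, 45 of the 122 tested were lower and 15 higher with R, and 51 lower and 11 higher with OF, with medians of −0.11 and −0.14; the shares over all genes tested are those given for the 46. Those with the smallest adjusted p among the lower genes were PUM3, RIOK2 and NIP7 with each antibody. RIOK2, a kinase of late small subunit maturation, fell by 0.70 with R and 0.80 with OF. NIP7, a large subunit factor, fell by 0.64 and 0.74, and PUM3, a nucleolar RNA-binding protein, by 0.73 and 0.75. Among the higher genes, RSL24D1, a large subunit factor, rose by 0.56 with R and 0.49 with OF, and MXD4, a MAX partner that opposes MYC, by 0.63 and 0.73. Other MYC network genes went the other way, with MXI1 at −0.82 and −0.69 and MGA at −0.60 and −0.68, both called lower. The rest of that group that were tested were not called. AMD1, an enzyme of polyamine synthesis, rose by 0.55 and 0.45, and OAZ1, which promotes the breakdown of ODC1 protein, by 0.47 and 0.44. By group, 18 of 45 other small subunit factors and 17 of 43 other large subunit factors were lower with R, and 20 and 20 with OF. In TMD8, 0 of the 123 tested were called with either antibody, and with the replicate block 10 were higher and 10 lower with R, where 8.99% of all genes were higher and 8.73% lower, and 6 higher and 10 lower with OF, where 7.45% and 6.87% were. These counts are close to the shares over all genes. Under isotype, 24 of the 123 were higher and 40 lower in U2932 than in TMD8, where 33.2% of all genes were higher and 33.7% lower. The lower count is close to the share over all genes, and the higher count is below it. MYCN and MYCL, the relatives of MYC, were below the filter in both lines.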

How the data were processed

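The 12 RNA-seq libraries came from 2 DLBCL cell lines. The table that the authors deposited holds raw read counts per Ensembl gene, 1 column per library, and no column was left unused. The submitters' processing notes name Trim Galore 0.6.0, cutadapt, FastQC, STAR 2.7.0e and DESeq2 1.26.0, with genome builds GRCh38 and hg38; the strand setting and annotation release are not given in the sources used here. Gene names, lengths and overlaps were taken from GENCODE 29, and promoter windows from RefSeq GRCh38.p14. A total of 27447 genes had no count, and every row named a gene.

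Libraries were grouped by their labels. The counts of each line (6 libraries) were fitted in edgeR 4.0.16 (R 4.3.3) with TMM scaling, after filterByExpr with a minimum count of 10, and tested by the quasi-likelihood test. The comparison of the lines and the differences in response used all 12 libraries. P-values were adjusted by Benjamini-Hochberg over all genes tested, and genes with an adjusted p under 0.10 were called, with no fold limit. CPM are TMM-scaled over 12 libraries. The 46 genes and the related lists were chosen with earlier results of these data known. Any of the 46 could be named, ordered by role, and of the related genes up to 3 per direction with the smallest adjusted p. MXI1 and MGA were named as well, since they moved against MXD4. The code was tested on simulated data. One B-cell marker is not reported here. Intervals are standard errors between replicates.

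Replicate numbers were taken to mark the 2 cultures kept per line. Deviations of same-numbered libraries from their group means correlated at 0.22, 0.23 and 0.69 over genes in TMD8 and at −0.05, 0.10 and −0.00048 in U2932. The alternatives were DESeq2 1.42.0, RLE, upper-quartile and library size scaling, no filter, at least 10 counts in every library, 1 fit of 12 libraries, the replicate block, removal of the trend on GC content (lowess span 0.3), the last 2 together, each library left out, an adjusted p under 0.05 and a fold limit of 1.5. For TMD8 and for the comparisons between lines, ranges over all alternatives also take in 1 fit chosen after the values were seen. That fit leaves out OF replicate 2 and isotype replicate 2 of TMD8.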

Additional observations from a re-analysis of the deposited data

Results flagged for a closer look

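The response to R differed between U2932 and TMD8 for 6 of the 46 genes when the replicate number was a block in the edgeR quasi-likelihood test of the difference itself (6.04% of all genes were called), given below as the log2 fold change in U2932 minus that in TMD8. The difference was −0.78 ± 0.17 (adjusted p = 0.0319; 0.000328 to 0.653 over all alternatives) for UTP20, −0.62 ± 0.15 (adjusted p = 0.0502; 0.00525 to 0.7 over all alternatives) for HEATR1 and −0.59 ± 0.15 (adjusted p = 0.0532; 0.0532 to 0.849 over all alternatives) for DDX21. WDR43 was at −0.51 ± 0.14 (adjusted p = 0.0761; 0.0761 to 0.806 over all alternatives) and POLR1B at −0.50 ± 0.14 (adjusted p = 0.0802; 0.0551 to 0.762 over all alternatives). WDR74 was the 1 positive difference, at 0.56 ± 0.15 (adjusted p = 0.0637; 0.00331 to 0.7 over all alternatives). For UTP20, HEATR1, WDR43 and POLR1B both U2932 cultures were below isotype and both TMD8 cultures above it. This pattern is a description only, since the genes were picked by a test of these same libraries. The share of all genes with it is not given. DDX21 changed by −0.52 and −0.65 in the U2932 cultures and by −0.09 and 0.11 in those of TMD8. WDR74 was below isotype in all 4 cultures, at −0.24 and −0.15 in U2932 and −0.82 and −0.70 in TMD8.

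Without the block none of the 6 passed in edgeR, while DESeq2 called UTP20 and HEATR1, 2 of 46 where it called 4.47% of all genes. With the block and the GC content correction together, UTP20 passed and the other 5 did not. Over all genes, the median R response in the lowest and highest GC deciles was −0.09 and 0.07 in U2932 and 0.14 and −0.27 in TMD8. GC content was 40.3 to 44.8% in the 5 genes with negative differences and 55.4% in WDR74. The median over genes tested in U2932 was 48.1%. The part of this trend in the 6 differences was not tested. Without OF replicate 2 and isotype replicate 2 of TMD8, where the line then rests on 1 isotype library, UTP20 (−0.87), HEATR1 (−0.63), POLR1B (−0.45) and WDR74 (0.66) passed while DDX21 and WDR43 did not, and 16% of all genes were called.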

How the results depend on the processing

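In U2932, the counts of 5 higher and 18 lower members with R became 2 and 28 with library size only (37% of all genes called, against 34.2% as reported), 0 and 1 with all 12 libraries in 1 fit (7.46%), and 0 and 2 at a fold limit of 1.5 (10.2%). The 5 higher and 21 lower with OF (36.4% of all genes) became 1 and 3 in the 12-library fit (8.69%) and 1 and 3 at that fold limit (11.1%). The higher count with OF was also 2 with library size only (37.3%), with no filter (17.7%) and at an adjusted p under 0.05 (29.8%), and 3 with the GC content correction, without or with the replicate block (40.1% and 39%). In TMD8 with R, where 0 passed, 0.647% of all genes were called, and 1 member was higher with DESeq2 (4.9% of all genes), no filter (4.05%), at least 10 counts in every library (1.37%), the 12-library fit (12.3%), the block (17.7%), the GC content correction (3.31%) and both together (16.5%). In these fits and with library size only (0.464%), lower members were 2 with DESeq2, 1 with library size only, 4 with no filter, 4 in the 12-library fit, 5 with the block and 6 with block and GC content correction. With OF (0.815%), the 1 higher member was lost (0) with library size only (0.176%) and at an adjusted p under 0.05 (0%), and the 0 lower became 2 with no filter (3.37%), 2 in the 12-library fit (9.93%), 8 with the block (14.3%) and 8 with block and GC content correction (15.7%). For the difference between lines with R, 2 were negative with DESeq2 (4.47% of all genes called), 5 negative and 1 positive with the block (6.04%), and 1 negative with block and GC content correction (3.11%). Beside the calls named in the report, the replicate block changed no other call.

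Leaving out both TMD8 libraries that stand apart, chosen after seeing the data, gave 4 higher and 16 lower with R (30.3% of all genes called), 6 and 8 with OF (23.4%), 2 and 3 for R against OF (4%), 7 positive and 6 negative differences between lines with R (16%), and 1 and 3 with OF (5.28%). It turned POLR1A (0.38), MYBBP1A (0.30), DDX21 (−0.25) and ODC1 (−0.29) with R in TMD8, DKC1 (−0.22), NHP2 (−0.22) and NOP10 (−0.25) between the lines, and POLR1A (−0.61) and MYBBP1A (−0.46) in the difference with R. The causes were not tested.

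With each library left out in turn, U2932 had 2 to 7 higher and 14 to 24 lower with R, where 23.4 to 36% of all genes were called, and 2 to 8 and 10 to 23 with OF, where 20.5 to 40.3% were. TMD8 had 0 higher and 0 to 2 lower with R (0 to 3.54% of all genes), and 0 to 1 of each with OF (0 to 3.29%). U2932 against TMD8 had 5 to 9 higher and 15 to 26 lower (56.1 to 67%). BOP1 with R in U2932 was at −0.03, and ran from −0.24 without isotype replicate 2 to 0.21 without isotype replicate 1 (adjusted p = 0.0506 and 0.0793).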
